A study of Mus musculus with 8 samples.

Results

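Control cardiac fibroblasts sorted through 2 different Cre drivers were compared: GFP+ cells of the Postn lineage and GFP+ cells of the Tcf21 lineage, both sorted from mouse ventricles that had been under pressure overload for 4 weeks. The overload came from transverse aortic constriction (TAC), a surgery that narrows the aorta. The members are 4 of the 8 RNA-seq libraries of the series, chosen by their labels: HK3 and HK4 of run1739 (Postn-Cre controls) and HK6 and HK7 of run2110 (Tcf21-Cre controls). Each group therefore has 2 libraries, and all fold changes below are given as Postn-Cre over Tcf21-Cre. Cre driver and sequencing run change together in this design, so their effects cannot be told apart in any result below.

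The Postn-Cre control cells came from mice with a MerCreMer cDNA, a Cre recombinase active only with tamoxifen, knocked into the Postn locus. The Tcf21-Cre control cells came from mice with the same cDNA knocked into the Tcf21 locus. Both kinds of mice carried an eGFP reporter in the Rosa locus that Cre switches on, and neither control label lists a floxed gene. All mice were 8 to 10 weeks old at TAC, received tamoxifen by injection at 100 mg/kg on 2 days and then in chow at 40 mg/kg until the end, and their GFP+ cells were sorted into lysis reagent. The other 4 libraries are used only for a second contrast. They hold Smad2 flox/flox; Smad3 flox/flox fibroblasts labelled through Postn-Cre in run1739 (Smad2/3 DKO, HK15 and HK16) and Tgfbr1/2 flox/flox fibroblasts labelled through Tcf21-Cre in run2110 (Tgfbr1/2 DKO, HK2 and HK4). The labels do not say whether the libraries of a group are separate animals, nor how many copies of a knock-in the mice carry. The p-values therefore measure the spread between libraries, which may be technical.

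As background, Tcf21 is a basic helix-loop-helix transcription factor of epicardium-derived resident fibroblasts, and Tcf21-Cre marks such cells when tamoxifen is given. Postn encodes periostin, a secreted matricellular protein that resident fibroblasts switch on when the heart is injured, so Postn-Cre marks cells that turned the gene on while tamoxifen was present. In lineage tracing the activated Postn+ cells arise largely from the Tcf21 lineage, so the groups are overlapping populations and not separate cell types. In these bulk libraries, fewer cells of a type and less RNA per cell cannot be told apart.

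The 4 control libraries held 22987648 to 29222713 estimated counts, and all 8 held 21477646 to 32594474. Values are given as counts per 1000000 (CPM) after TMM scaling, which corrects library totals for differences in composition. A total of 3 counts, taken as the lowest level that can be told from 0, was worth 0.103 to 0.131 CPM in the controls, counting error only. Libraries of 1 group were more alike than libraries of different groups: Pearson's r of log2 CPM across genes was 0.967 for HK3 with HK4 and 0.979 for HK6 with HK7, against 0.875 to 0.925 between groups. Ribosomal protein genes took 1.04 and 0.862% of the counts in the Postn-Cre controls and 1.87 and 2.21% in the Tcf21-Cre controls. The TMM factors split the same way, at 0.884 and 0.896 against 1.16 and 1.09.

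Of 16568 genes tested with edgeR's quasi-likelihood test, 5612 (33.9%) passed an adjusted p of 0.05: 2752 (16.6%) were higher and 2860 (17.3%) lower in the Postn-Cre controls. A gene past that threshold is said below to have risen or fallen, meaning higher or lower in the Postn-Cre controls. These shares of all genes stand beside every count of a gene list below. Against a difference of 2-fold rather than 0 (edgeR glmTreat), 1210 genes (7.3%) passed, 462 (2.79%) higher and 748 (4.51%) lower. The balance of rises and falls rests on the scaling. With library totals alone, 5688 genes (34.3%) passed, 1583 (9.55%) higher and 4105 (24.8%) lower, because the median log2 fold change of all genes moved by -0.34, from -0.07 to -0.41. Rises therefore made up 49.0% of the calls under TMM and 27.8% under total counts. For 11741 genes (70.9%) the groups of 2 did not overlap, so a lack of overlap is common here and carries little by itself.

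A second property moved with the whole comparison: the GC content of the transcripts. The Spearman correlation of log2 fold change with GC content across genes was -0.46, given as a description of genes that share the same 4 libraries. Genes were split into 5 bins of equal size. In the bin of lowest GC content (28.1 to 43.8%) the median log2 fold change was 0.62, with 35.0% risen and 3.46% fallen. In the bin of highest GC content (55.2 to 73.7%) it was -1.18, with 2.14% risen and 39.7% fallen. Within groups the same correlation was 0.05 for HK3 over HK4 and -0.13 for HK6 over HK7. Transcript length moved less, with a Spearman correlation of 0.18. When each library's smooth trend with GC content was removed, 3809 genes (23.0%) passed, 1698 (10.2%) higher and 2111 (12.7%) lower. That fit kept 1340 of the rises and 1559 of the falls, called 3 genes the opposite way and added 907. Values from that fit are marked below as "GC trend removed", and the part of GC content in each result was not tested beyond that fit.

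**Figure D1:**
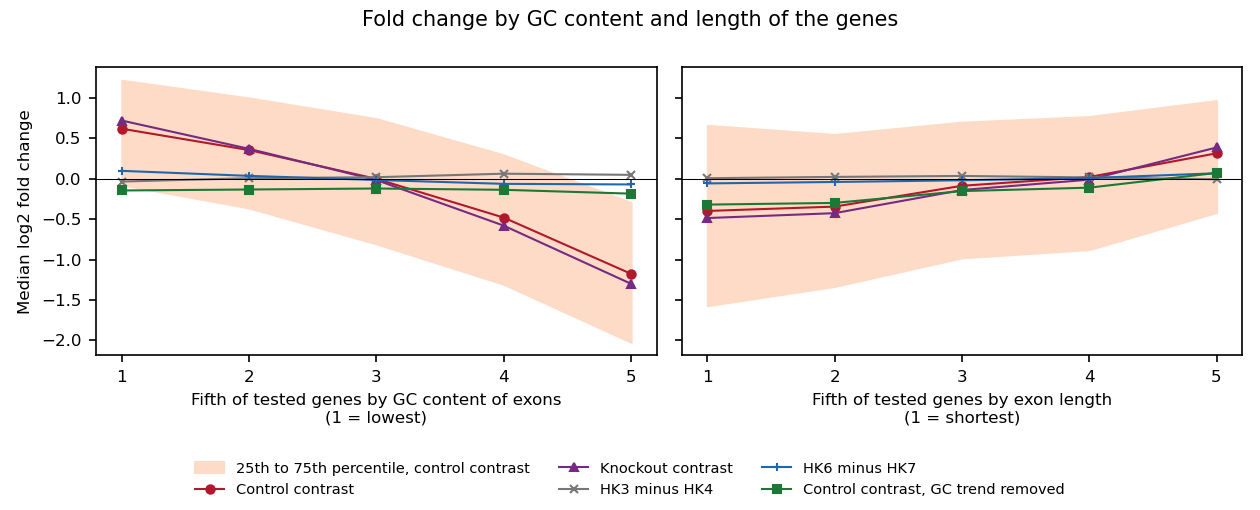
Log2 fold change (Postn-Cre over Tcf21-Cre controls) of the tested genes in 5 equal bins of transcript GC content and of transcript length, as medians with the middle 50% of genes. The median falls from 0.62 in the bin of lowest GC content to -1.18 in the highest, while the differences of HK3 from HK4 and of HK6 from HK7 stay near 0.

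The genes of the drivers themselves were examined first. Postn (chr3:54361109-54391037, + strand, mm10) stood at 235 and 207 CPM in the Postn-Cre controls and at 1393 and 2829 CPM in the Tcf21-Cre controls. The gene that names the Postn lineage was thus 9.54-fold lower in the cells sorted through it (log2 fold change -3.25 ± 0.35 SE, adjusted p = 0.00169), and -4.22 with the GC trend removed. Tcf21 (chr10:22817281-22820174, - strand, mm10) stood at 29.6 and 28.6 CPM against 140.2 and 102 CPM, 4.17-fold lower in the Postn-Cre controls (-2.06 ± 0.22, adjusted p = 0.00172). The level of Postn thus runs against the name of its lineage and that of Tcf21 runs with it. The groups are therefore called by their Cre driver, not by a state of activation. Each driver sits in the locus of its own gene, and the part of the knock-in alleles in the Postn and Tcf21 levels was not tested. Without any 1 of the 4 libraries, both genes still fell, with adjusted p no higher than 0.00153 for Postn and 0.000428 for Tcf21.

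Of the 4 genes floxed in the mutant mice of the study, only Smad2 was called between the controls in the TMM fit. Tgfbr1 and Tgfbr2, which encode the type I and type II TGF-beta receptors, had log2 fold changes of 0.30 and 0.35 (adjusted p = 0.222 and 0.175). With the GC and length trends both removed Tgfbr1 fell, as given in the section on processing. Smad3, a receptor-activated transducer, had a log2 fold change of -0.06 ± 0.19 (adjusted p = 0.85). Smad2, its partner transducer, stood at 108 and 91.9 CPM against 58.2 and 58.4 CPM and rose (0.78 ± 0.19, adjusted p = 0.018). With the GC trend removed its log2 fold change was 0.22 (adjusted p = 0.423), and under total-count scaling 0.44 (adjusted p = 0.116), and its adjusted p was 0.071 without HK3 and 0.0566 without HK7.

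Genes that injury switches on in cardiac fibroblasts did not move as a block. Of 34 tested, 9 (26.5%) rose and 8 (23.5%) fell, beside 16.6% and 17.3% of all genes. Their median was -0.28 beside -0.07 for all genes. Col8a1, a short-chain collagen of the vessel wall and of overloaded myocardium, had the smallest p among them at 10818 and 12253 CPM against 2209.9 and 2465 CPM (2.30 ± 0.22, adjusted p = 0.00136). Thbs1, encoding thrombospondin-1, an activator of latent TGF-beta, stood at 5812 and 6214 CPM against 1688 and 1498 CPM (1.92 ± 0.21, adjusted p = 0.00169). Both genes had every Postn-Cre library more than 3 times as high as any Tcf21-Cre library. Prg4, the lubricating proteoglycan 4, read 3148 and 5353 CPM against 871 and 665 CPM (2.47 ± 0.31, adjusted p = 0.00219). Runx1, a Runt-family transcription factor, read 523 and 704 CPM against 108 and 185 CPM (2.07 ± 0.30, adjusted p = 0.00302). Sfrp1, a secreted Wnt antagonist, rose by 1.31 ± 0.23 (adjusted p = 0.00554).

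The falls in the same group held other activation genes beside Postn. Fap, the fibroblast activation protease, stood at 38.8 and 30.4 CPM against 88.2 and 89.9 CPM (-1.36 ± 0.21, adjusted p = 0.0037). Meox1, a homeobox factor of stress-activated fibroblasts, read 104 and 63.5 CPM against 253 and 464 CPM (-2.10 ± 0.35, adjusted p = 0.00471). Comp, a cartilage matrix protein, read 78.5 and 65.4 CPM against 112 and 319 CPM and fell (-1.58 ± 0.43, adjusted p = 0.0276), but its adjusted p was 0.609 with the GC trend removed. The call on Comp was also lost without HK3, HK4 or HK7 (adjusted p = 0.221, 0.32 and 0.0933). Several well-known members split the Tcf21-Cre pair instead. Fn1, encoding fibronectin, stood at 3074 and 3185 CPM against 1554 in HK6 and 4076 in HK7 (0.15 ± 0.40, adjusted p = 0.8). Thbs4 read 1095 and 1554 CPM against 798 and 3351 CPM (adjusted p = 0.41), and Cilp 816 and 827 CPM against 642 and 2100.5 CPM (adjusted p = 0.259). In all 3 genes HK6 lay lowest and HK7 highest of the 4 controls. With the GC trend removed, 8 of the 34 rose and 4 fell, and under total-count scaling 6 rose and 10 fell.

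Genes of resting fibroblasts held more falls than rises. Of 35 tested, 2 rose and 16 fell (median -0.48), and with the GC trend removed 1 rose and 16 fell (median -0.70), 11 of them the same falls. Under total-count scaling 1 rose and 19 fell. Inmt, indolethylamine N-methyltransferase, stood at 1.52 and 2.14 CPM against 25.8 and 28.4 CPM (-3.89 ± 0.35, adjusted p = 0.00127). Htra3, a secreted serine protease, stood at 60.4 and 33.4 CPM against 429 and 519 CPM (-3.34 ± 0.31, adjusted p = 0.00136). Cygb, a cytoglobin, read 172 and 131 CPM against 759 and 1024 CPM (-2.56 ± 0.24, adjusted p = 0.00136). Pi16, a peptidase inhibitor of adventitial fibroblasts, read 272 and 221 CPM against 794 and 1196 CPM (-2.01 ± 0.25, adjusted p = 0.00225). In none of these 4 genes did a Postn-Cre library come near a Tcf21-Cre library. Entpd2, an ectonucleotidase, fell by 2.14 ± 0.25 (adjusted p = 0.00186).

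General fibroblast genes were not called, but this rested on the processing. Pdgfra, the PDGF receptor commonly used to define cardiac fibroblasts, stood at 528 and 365 CPM against 643 and 728 CPM (-0.62 ± 0.23, adjusted p = 0.0722), with no overlap between the groups. Pdgfra fell with the GC trend removed (-0.90, adjusted p = 0.0296), under total-count scaling (-0.95, adjusted p = 0.0179) and with the length trend removed (-1.03, adjusted p = 0.0152). Dcn, the proteoglycan decorin, stood at 11852 and 10017 CPM against 12288 and 14194 CPM (-0.28 ± 0.22, adjusted p = 0.372), and fell with the GC trend removed (-1.19, adjusted p = 0.0145). Both markers were thus abundant in every control library. The 2 resting genes that rose were Gfpt2, an enzyme of hexosamine synthesis, at 3285 and 2902 CPM against 1017 and 693 CPM (1.85 ± 0.25, adjusted p = 0.00253), and Ddr2, a collagen receptor (0.97 ± 0.26, adjusted p = 0.0249). Ddr2 was no longer called with the GC trend removed (adjusted p = 0.233), under total-count scaling (0.125) or without HK4 (0.0824).

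**Figure D2:**
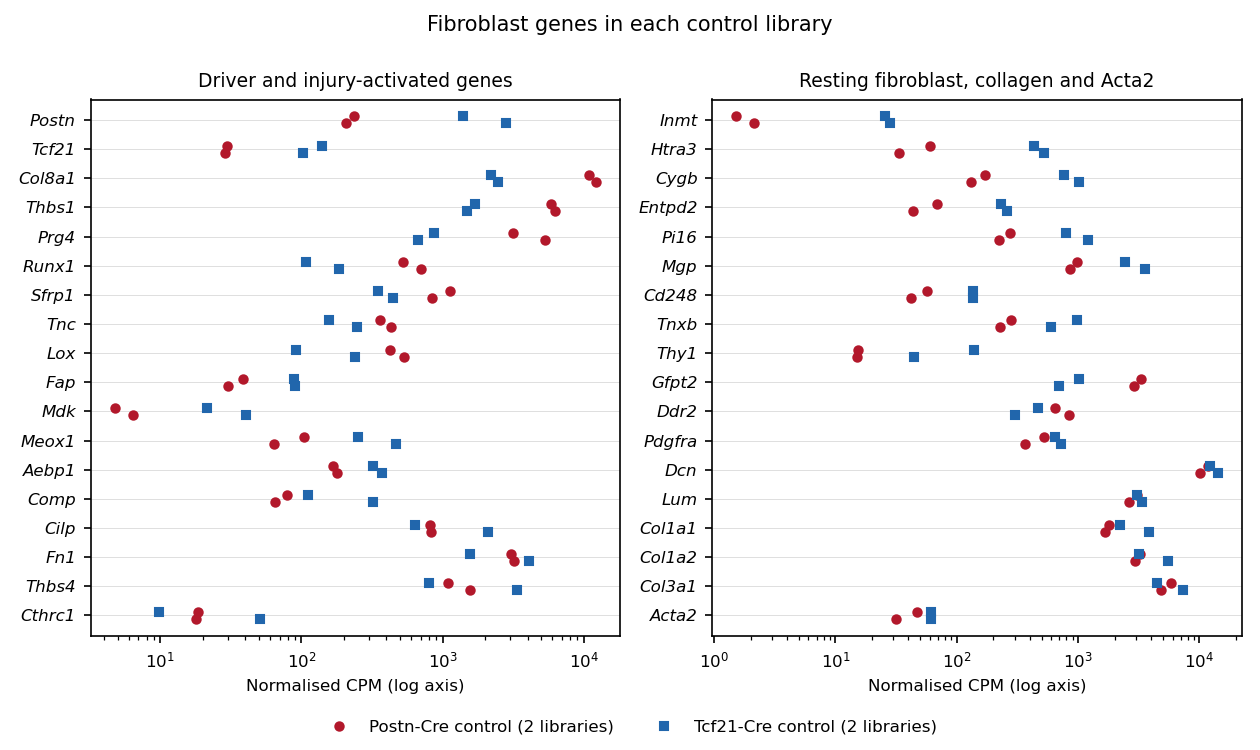
TMM-scaled CPM on a log axis of fibroblast genes in the 4 control libraries, 1 point per library, with HK3 and HK4 (Postn-Cre) and HK6 and HK7 (Tcf21-Cre) in different colours. Postn, Tcf21 and resting genes such as Inmt, Htra3, Cygb and Pi16 lie lower in the Postn-Cre pair. Col8a1, Thbs1 and Prg4 lie higher there, as does the resting gene Gfpt2. Col1a1, Col3a1 and Fn1 lie close or spread within the Tcf21-Cre pair.

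The main fibrillar collagens were not called. Col3a1 stood at 5806 and 4812 CPM against 4474 and 7322 CPM (-0.15 ± 0.28, adjusted p = 0.709). Col1a2 had a log2 fold change of -0.49 (adjusted p = 0.217), and Col1a1 stood at 1782 and 1653 CPM against 2215 and 3866 CPM (-0.82 ± 0.28, adjusted p = 0.0576). The Tcf21-Cre pair spread nearly as far for Col1a1 as the groups differed. Under total-count scaling Col1a1 fell (-1.15, adjusted p = 0.0168), while with the GC trend removed its value was 0.31 (adjusted p = 0.423). Of 11 fibrillar chains, Col5a1 and Col5a3 of type V collagen, which seeds fibril assembly, were the 2 that fell (-0.76 and -1.57). Neither fell with the GC trend removed, where Col5a1 stood at 0.26 and Col5a3 at -0.11. The call on Col5a1 was also lost without HK3, HK4 or HK7 (adjusted p = 0.0765, 0.102 and 0.0672). Acta2, the smooth muscle actin of myofibroblasts, stood at 47.2 and 31.8 CPM against 61.7 and 61.2 CPM (-0.64 ± 0.24, adjusted p = 0.0786). It fell under total-count scaling (-0.98, adjusted p = 0.0206) and without HK3 (adjusted p = 0.0132).

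Among 26 other collagen chains 2 rose and 9 fell (median -0.67), but with the GC trend removed 5 rose and 2 fell. The type VI chains Col6a2 and Col6a3, part of the pericellular network, fell by 0.87 and 0.98 (adjusted p = 0.0163 and 0.0122), and lost the call with the GC trend removed (adjusted p = 0.371 and 0.139) and without HK4 (adjusted p = 0.0849 and 0.0546). The median GC content of the 26 was 54.8%, and of the fibrillar chains 58.0%.

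Enzymes and chaperones that fold, cut and crosslink collagen held more falls than rises. Of 28 tested, 3 rose and 12 fell (median -0.63), and 8 fell and 4 rose with the GC trend removed. Pcolce, the enhancer of procollagen C-proteinase, stood at 118 and 108 CPM against 699 and 766 CPM (-2.70 ± 0.19, adjusted p = 0.00102). Bmp1, the proteinase that Pcolce enhances, read 50.8 and 44.3 CPM against 159 and 167 CPM (-1.78 ± 0.19, adjusted p = 0.00161). Ppib, a prolyl isomerase of the endoplasmic reticulum that folds procollagen, fell by 2.33 ± 0.24 (adjusted p = 0.00157), and its partner Fkbp10 by 1.85 ± 0.19 (adjusted p = 0.00158). Plod2, the telopeptide lysyl hydroxylase that sets the kind of crosslink, went the other way at 626 and 761 CPM against 165 and 231 CPM (1.81 ± 0.23, adjusted p = 0.00233). All 5 of these genes kept their direction and call with the GC trend removed.

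Elastic-fibre and other matrix glycoprotein genes also held more falls than rises. Of 43 matricellular and glycoprotein genes 5 (11.6%) rose and 15 (34.9%) fell (median -0.52), and 2 rose and 10 fell with the GC trend removed. Eln, encoding elastin, stood at 3.61 and 0.68 CPM against 67.0 and 66.8 CPM (-4.94 ± 0.62, adjusted p = 0.00222). Thbs3, another thrombospondin, read 11.5 and 11.9 CPM against 56.0 and 80.8 CPM (-2.55 ± 0.26, adjusted p = 0.00155), the opposite direction to Thbs1. Of 25 proteoglycan genes, 5 (20%) rose and 5 (20%) fell, near the 16.6% and 17.3% of all genes. Under total-count scaling 3 rose and 9 fell, where 9.55% of all genes rose and 24.8% fell. Bgn, the small leucine-rich proteoglycan biglycan, stood at 21071 and 21353 CPM against 7901 and 9173 CPM (1.31 ± 0.22, adjusted p = 0.00482). Vcan, the large hyaluronan-binding proteoglycan versican, read 5885 and 6392 CPM against 2305 and 1469 CPM (1.70 ± 0.26, adjusted p = 0.00381). Hspg2, the basement membrane proteoglycan perlecan, fell (-1.11 ± 0.20, adjusted p = 0.00668), but stood at 0.25 with the GC trend removed. Of 30 matrix proteases and inhibitors 5 (16.7%) rose, near the 16.6% of all genes, and 10 (33.3%) fell, beside 17.3%. Adamts15, a proteoglycan-cleaving metalloprotease, was among the largest falls of all genes, at 0.958 and 0.389 CPM against 32.3 and 18.2 CPM (-5.20 ± 0.54, adjusted p = 0.00158).

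Cytokine and chemokine genes leaned the other way. Of 36 tested, 14 rose and 4 fell (median 0.52), against 16.6% risen and 17.3% fallen among all genes. With the GC trend removed 10 rose and 3 fell, and under total-count scaling 11 rose and 8 fell. Interleukin-1 and related signals switch on such genes through NF-kappaB, a transcription factor family that binds short promoter motifs. Ptgs2, the prostaglandin synthase COX-2, stood at 6282 and 7965 CPM against 915 and 614 CPM (3.22 ± 0.28, adjusted p = 0.00127). Il6, the acute-phase cytokine interleukin-6, stood at 1705 and 1916 CPM against 249 and 148 CPM, 9.12-fold higher (3.19 ± 0.29, adjusted p = 0.00135). Cxcl5, a neutrophil-attracting chemokine, read 109 and 143 CPM against 15.4 and 7.36 CPM (3.46 ± 0.37, adjusted p = 0.00168). In these 3 genes each Postn-Cre library was more than 6 times as high as each Tcf21-Cre library. Lif, leukaemia inhibitory factor of the Il6 family, rose by 2.27 ± 0.29 (adjusted p = 0.00231). Il1r1, the interleukin-1 receptor, read 1198 and 1299.6 CPM against 348 and 188 CPM (2.22 ± 0.30, adjusted p = 0.00268). Nfkb1, an NF-kappaB subunit, rose by 1.58 ± 0.22 (adjusted p = 0.00287).

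The promoters of 3 risen members show what an NF-kappaB-type motif looks like at these genes. The motif searched was GGNNTTTCC on either strand in the 120 bases before the RefSeq start, in GRCm38.p6, and capitals mark its matches. The sequences, 5′ to 3′ on the + strand from RefSeq, lie at chr5:30012994-30013113 for Il6, chr5:90891125-90891244 for Cxcl1 and chr5:90903779-90903898 for Cxcl2, both of the latter neutrophil-attracting chemokines.
Il6: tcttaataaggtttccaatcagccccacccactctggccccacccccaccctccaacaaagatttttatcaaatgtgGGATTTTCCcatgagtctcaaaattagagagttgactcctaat
Cxcl1: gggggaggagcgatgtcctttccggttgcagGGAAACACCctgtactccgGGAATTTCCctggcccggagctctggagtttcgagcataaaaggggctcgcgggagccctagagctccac
Cxcl2: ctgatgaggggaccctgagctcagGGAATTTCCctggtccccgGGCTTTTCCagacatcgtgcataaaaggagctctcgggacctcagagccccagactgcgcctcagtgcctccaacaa
Of 26 tested cytokine genes with a promoter in the RefSeq table, 7 (26.9%) held the motif in any of their promoters. The motif was in 800 of 32851 promoters in all (2.44%) and in 0 of 21 tested immediate early genes in that table. The share of all counts single promoters and the other shares count genes, so they are unlike units. A match is a description of letters and not a bound site.

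The 7 genes with the motif did not move alike. Il6 rose with Cxcl2 (1.33 ± 0.30, adjusted p = 0.0136), Cxcl1 (0.75 ± 0.19, adjusted p = 0.0212) and Cxcl9 (2.03 ± 0.43, adjusted p = 0.0109). Of these, Il6 kept its call with the GC trend removed, while the adjusted p was 0.0826 for Cxcl2, 0.51 for Cxcl1 and 0.0603 for Cxcl9. Under total-count scaling it was 0.0513 for Cxcl2 and 0.151 for Cxcl1, and Cxcl1 also lost its call without HK3 or HK4 (adjusted p = 0.117 and 0.0835). Cxcl1 read 2276 and 2189 CPM against 1393 and 1264 CPM, a smaller difference than that of Il6. The other 3 are feedback or subunit genes of NF-kappaB itself and were not called: Nfkbia (-0.29, adjusted p = 0.48), Tnfaip3 (-0.43, adjusted p = 0.123) and Nfkb2 (0.02, adjusted p = 0.969). With the GC trend removed Nfkb2 rose (1.20, adjusted p = 0.0244) and Tnfaip3 fell (-0.81, adjusted p = 0.0252). These motif genes and the sequences were chosen after the values were seen.

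Secreted growth factors beside the cytokines held 2 of the largest rises. Ereg (chr5:91074622-91093646, mm10), the EGF-receptor ligand epiregulin, stood at 357 and 565 CPM against 17.8 and 20 CPM, 24.4-fold higher (4.61 ± 0.28, adjusted p = 0.000767). Inhba, the activin A subunit of the TGF-beta family, read 1018 and 1842 CPM against 129 and 38.2 CPM (4.1 ± 0.59, adjusted p = 0.00304), with an adjusted p of 0.116 without HK4. Csf1, the macrophage growth factor, read 638 and 743 CPM against 224 and 179 CPM (1.78 ± 0.21, adjusted p = 0.00186). The insulin-like growth factor binding proteins Igfbp4 and Igfbp5 went down instead, by 1.51 and 1.55 (adjusted p = 0.00466 and 0.00411). Of 37 genes of growth factors and the IGF axis, 5 (13.5%) rose and 6 (16.2%) fell, near the 16.6% and 17.3% of all genes. Under total-count scaling 3 rose and 10 fell, where 9.55% of all genes rose and 24.8% fell.

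Immediate early genes, which stress and growth signals switch on within minutes, mostly fell. Of 27 tested, 5 rose and 16 fell (median -1.78), and 5 rose and 13 fell with the GC trend removed (median -0.78). Junb (chr8:84974484-84978718, - strand, mm10), an AP-1 subunit, stood at 8.75 and 8.17 CPM against 227 and 352 CPM, 34.2-fold lower (-5.10 ± 0.28, adjusted p = 0.000767). Btg2, an antiproliferative co-regulator, read 42.9 and 37.4 CPM against 362 and 657 CPM (-3.67 ± 0.32, adjusted p = 0.00127). Socs3, the feedback inhibitor of Il6-family signalling, read 15.7 and 13.6 CPM against 126 and 182 CPM (-3.39 ± 0.25, adjusted p = 0.00102). Socs3 was thus lower in the libraries where Il6 and Lif were higher. Fos, the partner of the Jun proteins in AP-1, stood at 102 and 40.4 CPM against 444 and 931 CPM (-3.27 ± 0.51, adjusted p = 0.00384). Egr1, a zinc finger factor, read 982 and 860.2 CPM against 3858 and 6242 CPM (-2.45 ± 0.28, adjusted p = 0.00184). Not every member followed: Klf6 read 2152 and 2247 CPM against 726 and 749 CPM (1.58 ± 0.19, adjusted p = 0.00198), and Myc 725 and 769 CPM against 295 and 308 CPM (1.31 ± 0.18, adjusted p = 0.00272). Fosl1, an AP-1 subunit, and the orphan receptor genes Nr4a2 and Nr4a3 were the other 3 that rose. Fosl1 lost its call without HK3 or HK4 (adjusted p = 0.104 and 0.177), and Nr4a3 without HK3, HK4 or HK7 (0.0942, 0.0845 and 0.0531), with the GC trend removed (0.103) and under total-count scaling (0.191).

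**Figure D3:**
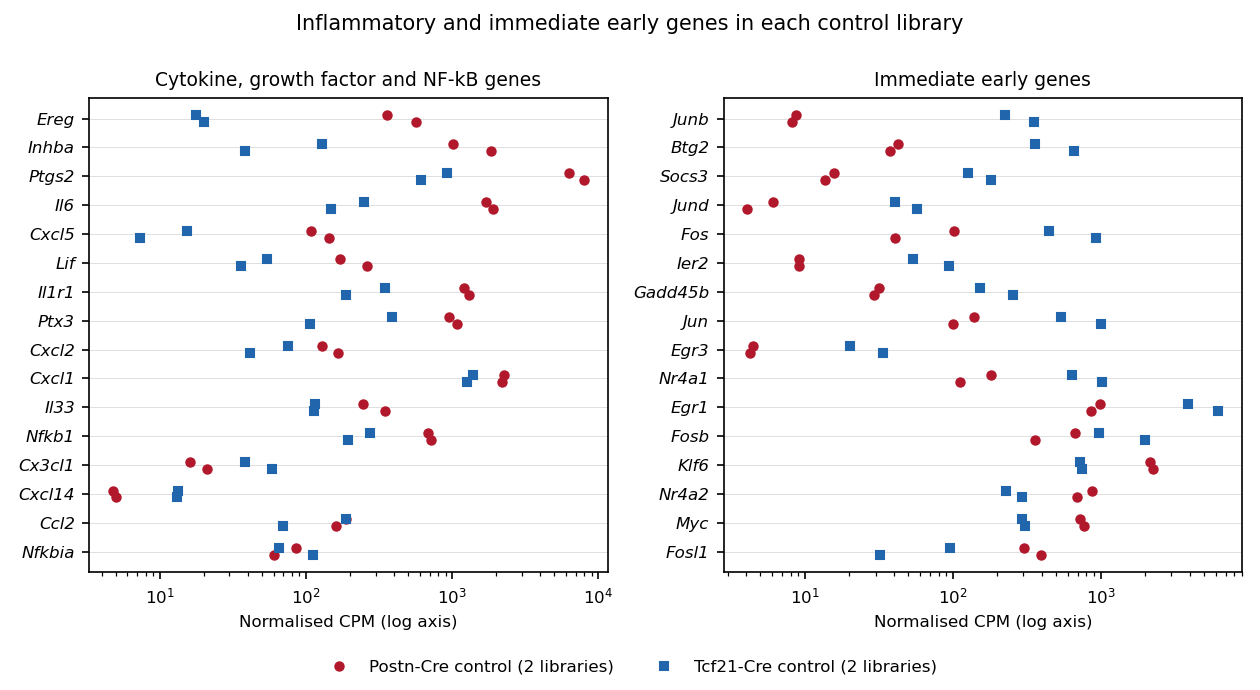
TMM-scaled CPM on a log axis of cytokine, growth factor and immediate early genes in the 4 control libraries, 1 point per library. Ptgs2, Il6 and Ereg lie higher in HK3 and HK4, and Junb, Btg2, Socs3 and Fos lie lower there, with no overlap between groups in these genes.

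Of 37 TGF-beta pathway genes tested, 11 (29.7%) rose and 6 (16.2%) fell (median 0.18), beside 16.6% and 17.3% of all genes. With the GC trend removed 8 rose and 2 fell. Under total-count scaling 5 rose and 9 fell, where 9.55% of all genes rose and 24.8% fell. The balance of this group thus shifts with the scaling, as that of all genes does. Tgfb2, a TGF-beta ligand, stood at 374 and 474 CPM against 149 and 95.8 CPM (1.80 ± 0.26, adjusted p = 0.00304). Tgfb3, its close relative, fell, at 98.1 and 57.6 CPM against 176 and 419 CPM (-1.93 ± 0.42, adjusted p = 0.0124), with an adjusted p of 0.113 without HK4. Bmpr2, the type II BMP receptor, read 884 and 920.0 CPM against 247 and 223 CPM (1.94 ± 0.19, adjusted p = 0.00136). Acvr2a, a type II receptor for activin, read 122 CPM in both Postn-Cre libraries against 46.8 and 38.9 CPM (1.52 ± 0.19, adjusted p = 0.00233). Smad7, the inhibitory Smad that the pathway induces, fell (-1.29 ± 0.26, adjusted p = 0.00856), though its adjusted p was 0.223 with the GC trend removed. Of 32 Wnt pathway genes 2 (6.25%) rose and 9 (28.1%) fell, beside the same 16.6% and 17.3%. Wnt5a, a ligand of non-canonical Wnt signalling, read 17.1 and 10.4 CPM against 47.1 and 44.1 CPM (-1.72 ± 0.29, adjusted p = 0.00505), and the receptor Fzd2 fell by 2.93 ± 0.40 (adjusted p = 0.00265).

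Transcription factors of cardiac and mesenchymal identity were called in both directions, as all genes were. Of 52 tested, 11 (21.2%) rose and 17 (32.7%) fell, beside 16.6% and 17.3% of all genes. With the GC trend removed 9 rose and 14 fell, where 10.2% of all genes rose and 12.7% fell. Hic1, a zinc finger repressor that marks quiescent mesenchymal progenitors, stood at 5.88 and 3.45 CPM against 101 and 133 CPM (-4.64 ± 0.33, adjusted p = 0.00102). Osr1, a mesenchymal progenitor factor, read 4.48 and 2.53 CPM against 23.0 and 23.6 CPM (-2.73 ± 0.37, adjusted p = 0.0027). Foxc2, a forkhead factor of vessel and mesenchyme development, stood at 53.7 and 72.7 CPM against 11.8 and 8.37 CPM (2.64 ± 0.28, adjusted p = 0.00168), and by 4.15 with the GC trend removed. Its paralogue Foxc1 read 70.9 and 67.8 CPM against 26.4 and 29.6 CPM (1.31 ± 0.20, adjusted p = 0.00371). Zeb1 and Zeb2, repressors of epithelial genes, rose by 1.22 and 1.54 (adjusted p = 0.00349 and 0.00407).

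Of 35 contractile and cytoskeletal genes, 5 (14.3%) rose and 9 (25.7%) fell, beside 16.6% and 17.3% of all genes. The fit with the GC trend removed had 6 rises and 5 falls, and under total-count scaling 3 rose and 11 fell. Cald1, the actin-binding caldesmon, stood at 1712 and 1849 CPM against 465 and 477 CPM (1.92 ± 0.19, adjusted p = 0.00145). Itga5, the fibronectin receptor subunit, read 708 and 679 CPM against 200.3 and 151 CPM (1.98 ± 0.21, adjusted p = 0.00165), and Tpm4, a cytoskeletal tropomyosin, rose by 1.66 ± 0.21 (adjusted p = 0.00222). Among 30 genes of glycolysis and hypoxia 8 (26.7%) rose and 8 (26.7%) fell, with 8 and 4 when the GC trend was removed. Hif1a, the oxygen-regulated subunit of the hypoxia factor, stood at 329.9 and 344 CPM against 75.8 and 77.7 CPM (2.13 ± 0.18, adjusted p = 0.0012), and Hk2, the inducible hexokinase, rose by 1.65 ± 0.21 (adjusted p = 0.00225). Aldoa, the glycolytic aldolase, fell by 1.45 ± 0.22 (adjusted p = 0.00349), but not with the GC trend removed (adjusted p = 0.0741).

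Many genes of the ribosome, of mitochondrial respiration and of histones fell. Of 80 cytosolic ribosomal protein genes 3 rose and 55 fell (median -0.94), and 54 fell with the GC trend removed, 45 of them the same falls. Rps14 stood at 13.0 and 9.48 CPM against 123 and 143 CPM (-3.56 ± 0.25, adjusted p = 0.00102), and Rplp1 at 9.62 and 6.12 CPM against 123 and 184 CPM (-4.28 ± 0.32, adjusted p = 0.00102). Ribosomal protein genes share reads with many processed pseudogenes, so their counts are uncertain. Of 71 nuclear genes for subunits of oxidative phosphorylation 4 rose and 40 fell (median -1.12), and 41 fell with the GC trend removed. Atp5g2, a subunit of the ATP synthase ring, stood at 0.697 and 0.535 CPM against 14.0 and 18.1 CPM (-4.69 ± 0.44, adjusted p = 0.00136). Of 45 replication-dependent histone genes, whose messages mostly lack a poly(A) tail, 1 rose and 20 fell (median -2.21), and 11 fell with the GC trend removed (median -1.47). Of 42 cell cycle genes 2 rose and 2 fell, with 1 and 5 when the GC trend was removed and 0 and 8 under total-count scaling. The shortest of 5 equal bins of transcripts (56 to 1686 bases) had 6.58% risen and 21.3% fallen, and the longest (5030 to 123179 bases) 31.1% and 11.5%. With the length trend removed, 36 of the ribosomal protein genes, 33 of the oxidative phosphorylation genes and 16 of the histone genes fell.

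**Figure D4:**
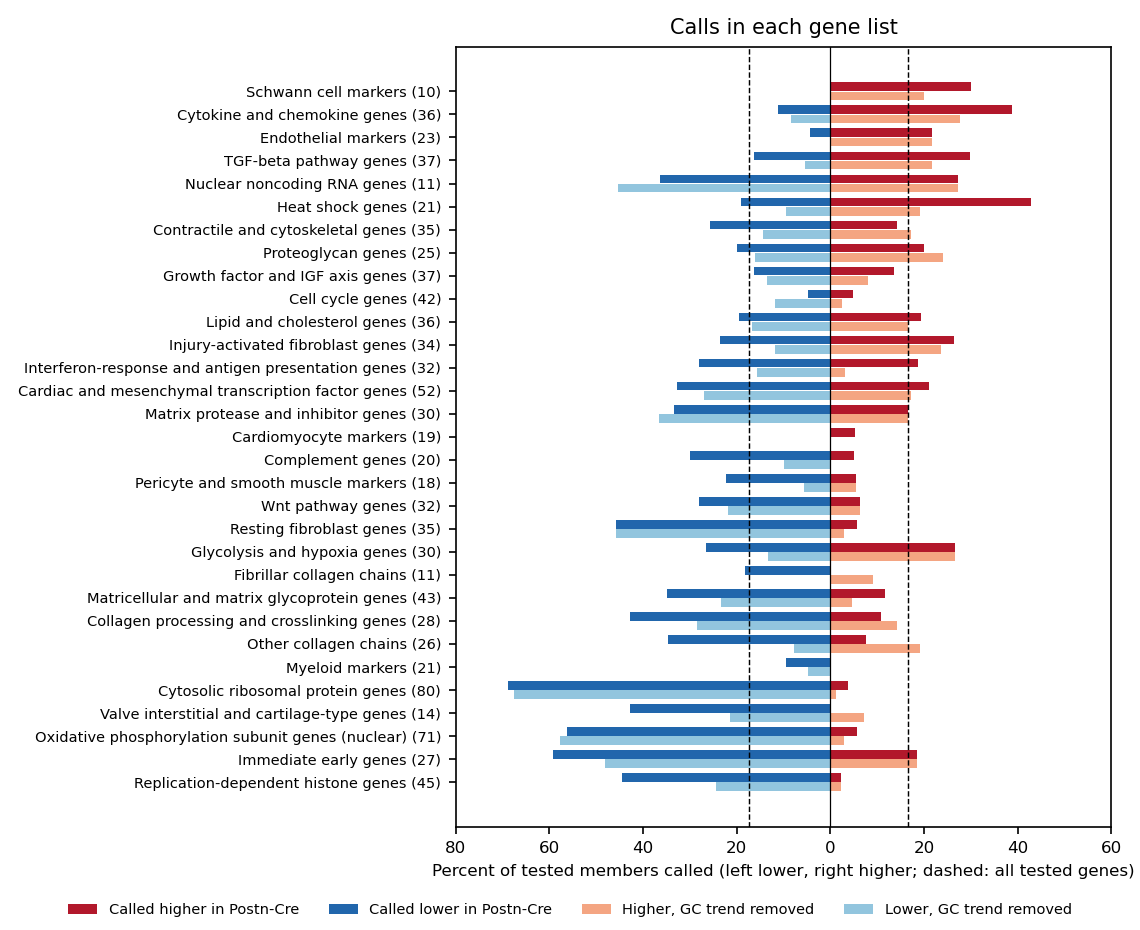
Percent of tested members of gene lists called higher (right) and lower (left) in the Postn-Cre controls, in the TMM fit and with the GC trend removed. Numbers of tested members are in brackets, lists are ordered by median log2 fold change, and dashed lines mark all tested genes in the TMM fit. Immediate early, ribosomal protein, oxidative phosphorylation and histone genes have more members called lower than higher in both fits. Cytokine genes have more called higher than lower in both.

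Among the other largest changes, the highest log2 fold change was that of AL732403.1 (7.17, at 15.4 and 12.1 CPM against 0.177 and 0 CPM), whose exonic bases are 98.6% shared with other annotated genes, so its counts are uncertain. Selp, the adhesion receptor P-selectin, stood at 27.5 and 17.7 CPM against 0.532 and 0.378 CPM (5.62 ± 0.45, adjusted p = 0.0012). Hephl1, a copper-dependent ferroxidase, read 26.7 and 23.6 CPM against 1.45 and 1.89 CPM (3.91 ± 0.35, adjusted p = 0.00127). Among the falls, Sepw1, selenoprotein W, read 1.61 and 2.09 CPM against 48.7 and 60.8 CPM (-4.89 ± 0.30, adjusted p = 0.000767), and Rabac1, a Rab acceptor of the secretory pathway, 0.958 and 0.778 CPM against 36.3 and 43.1 CPM (-5.50 ± 0.33, adjusted p = 0.000767). Art4, an ADP-ribosyltransferase family gene, stood at 0.261 and 0.243 CPM against 9.39 and 12.1 CPM (-5.39 ± 0.52, adjusted p = 0.00136).

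Genes of other cell types were read in the same libraries. Endothelial markers summed to 980 and 498 CPM in the Postn-Cre controls and 563 and 571 CPM in the Tcf21-Cre controls. Of 23 tested, 5 (21.7%) rose and 1 (4.35%), Eng, fell, beside 16.6% and 17.3% of all genes. Eng had a log2 fold change of 0.062 (adjusted p = 0.822) with the GC trend removed. In the mutant libraries 1 of 23 was higher and 11 lower, where 20.2% of all genes were higher and 24.5% lower. Pecam1, the CD31 antigen, stood at 51.9 and 30.7 CPM against 14.3 and 17.4 CPM (1.38 ± 0.31, adjusted p = 0.0132), and Erg, an endothelial ETS factor, at 138 and 101 CPM against 15.9 and 35.3 CPM (2.22 ± 0.38, adjusted p = 0.00505). HK3 held the highest levels of both. Cdh5, the endothelial cadherin, split the Postn-Cre pair at 124 and 36.6 CPM against 27.6 and 41.9 CPM (adjusted p = 0.105). Selp, above, is also a gene of endothelial cells, and the part of endothelial RNA in its rise was not tested.

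Pericyte and smooth muscle markers summed to 1953 and 1091 CPM against 1181 and 865 CPM. Of 18 tested, 1 (5.56%) rose and 4 (22.2%) fell, or 1 and 1 with the GC trend removed. Beside these and the marker lists below stand 16.6% risen and 17.3% fallen among all genes. Rgs5, a pericyte regulator of G-protein signalling, was the 1 that rose (1.82 ± 0.39, adjusted p = 0.012). It was not called with the GC trend removed (adjusted p = 0.0809). Des was among the 4 that fell (-1.96 ± 0.44, adjusted p = 0.0131), and also lost its call in that fit (adjusted p = 0.0869). Myeloid markers summed to 67.2 and 48.3 CPM against 65.8 and 112.8 CPM, with 0 of 21 risen and 2 (9.52%) fallen, Lyz2 and C1qc. Without HK7 the adjusted p of Lyz2 was 0.118 and that of C1qc 0.655, and without HK4 they were 0.0829 and 0.0772. C1qc was not called with the GC trend removed (adjusted p = 0.146). Ptprc, the leukocyte antigen CD45, was at 1.22 and 0.34 CPM against 1.09 and 0.818 CPM. Lymphocyte markers summed to 5.4 to 8.0 CPM, with Il7r, Ms4a1 and Nkg7 at 0 in all 4 controls. Cardiomyocyte markers summed to 778 and 813 CPM against 510 and 559 CPM, of which Atp2a2, a calcium pump that many cells express, gave most in every library. Myh6, the cardiomyocyte myosin, stood at 22.5 and 12.2 CPM against 18.5 and 42.2 CPM (adjusted p = 0.201). Schwann cell markers summed to 1022 and 1180 CPM against 438.5 and 378 CPM, with 3 of 10 (30%) risen and 0 fallen. Egfr, the receptor that Ereg binds, made up nearly all of that sum at 959 and 1118 CPM against 390.3 and 351 CPM (1.49 ± 0.19, adjusted p = 0.00245), while Sox10 stayed at or below 1.35 CPM. Genes of valve interstitial and cartilage-type cells summed to 272 and 214 CPM against 537 and 771 CPM. Of 14 tested, 0 rose and 6 (42.9%) fell, or 1 and 3 with the GC trend removed. Cytl1, a cytokine-like secreted protein of cartilage, read 30.9 and 24.7 CPM against 194 and 179 CPM (-2.75 ± 0.21, adjusted p = 0.00102). Epicardial and erythroid markers summed to between 7.0 and 104.9 CPM in every control library, with the epicardial markers Krt8 and Muc16 at 0 in all 4. The part of these other cells in the fibroblast results was not tested.

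Sex-linked genes were read as a check of the animals. Xist stood at 4.14 and 2.43 CPM against 1.51 and 1.16 CPM, and the Y-linked Ddx3y at 186 and 248 CPM against 96.5 and 62.7 CPM, so Y-linked transcripts were present in all 4 controls. Among the mutant libraries Xist stood at 292 and 79.8 CPM in the Smad2/3 DKO pair and at 0.969 and 1.16 CPM in the Tgfbr1/2 DKO pair. Ddx3y stood at 139 and 188 CPM in the Smad2/3 DKO pair and at 51.1 and 61.7 CPM in the Tgfbr1/2 DKO pair. Xist and a Y-linked transcript were thus both present in the Smad2/3 DKO libraries, and the cause was not tested.

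The same driver and run contrast was then read in the mutant libraries, which share no library with the controls. There the floxed genes differ as well, so this contrast changes 3 things at once. Of 16531 genes tested, 7388 (44.7%) passed: 3340 (20.2%) higher and 4048 (24.5%) lower in the Smad2/3 DKO libraries of the Postn driver. Of the 5612 control calls, 4030 were also called there in the same direction, which is 71.8% of the control calls and 54.5% of the mutant calls, and 44 were called the opposite way. Of the control calls tested in both, 94.5% had the same sign, against 78.9% of all genes tested. The GC content moved with that contrast too (Spearman correlation -0.48). In 84.1% of the control calls all 4 libraries of run1739 lay on 1 side of all 4 of run2110, against 46.0% of all genes tested. These calls were chosen on the control libraries, which are part of that comparison, so a higher share is partly built in. Control and mutant CPM were also scaled in separate fits. A difference shared by both contrasts goes with driver and run together and does not separate them.

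Postn stood at 311 and 299.8 CPM in the Smad2/3 DKO libraries and at 1343 and 1848 CPM in the Tgfbr1/2 DKO libraries (-2.38, adjusted p = 0.000269), and Tcf21 had a log2 fold change of -1.69 (adjusted p = 0.000497). Junb (-3.87), Hic1 (-4.74), Pcolce (-3.54) and Rplp1 (-3.26) were also lower, and Ereg (2.87), Il6 (2.33), Ptgs2 (2.15), Hif1a (1.36) and Bmpr2 (2.26) also higher, each called. Thbs1 (0.91, adjusted p = 0.0629), Lif (0.82, adjusted p = 0.214), Il1r1 (0.33, adjusted p = 0.257) and Vcan (0.34, adjusted p = 0.159) were not called in the mutant libraries. Col1a1, Col1a2 and Col3a1, not called between the controls, fell by 2.37, 1.58 and 2.07 there. Among gene groups, injury-activated genes had 8 of 34 higher and 17 lower, resting genes 4 of 35 higher and 24 lower, and cytokine genes 8 of 37 higher and 12 lower. Of 27 immediate early genes, 2 were higher and 17 lower. Among all genes in that contrast 20.2% were higher and 24.5% lower. The numbers higher among injury-activated and cytokine genes were thus near the share of all genes.

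Whether a gene's contrast differed between control and mutant libraries was tested as an interaction over all 8 libraries, and 326 of 17770 genes (1.83%) passed. Il1r1 and Itga5 had higher log2 fold changes in the controls than in the mutant libraries (differences of 1.86 and 1.96). Smoc1, a matricellular SPARC-family protein, read 8.4 and 6.76 CPM against 38.1 and 31.8 CPM in the controls (-2.20, adjusted p = 0.00224) and rose in the mutant libraries (1.73), as did Art4 (1.78). Of the 208 genes named by the rules, 70 rose, 110 fell and 28 were not called in the controls. Of those called, 149 were also called in the mutant libraries, 147 of them in the same direction.

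**Figure D5:**
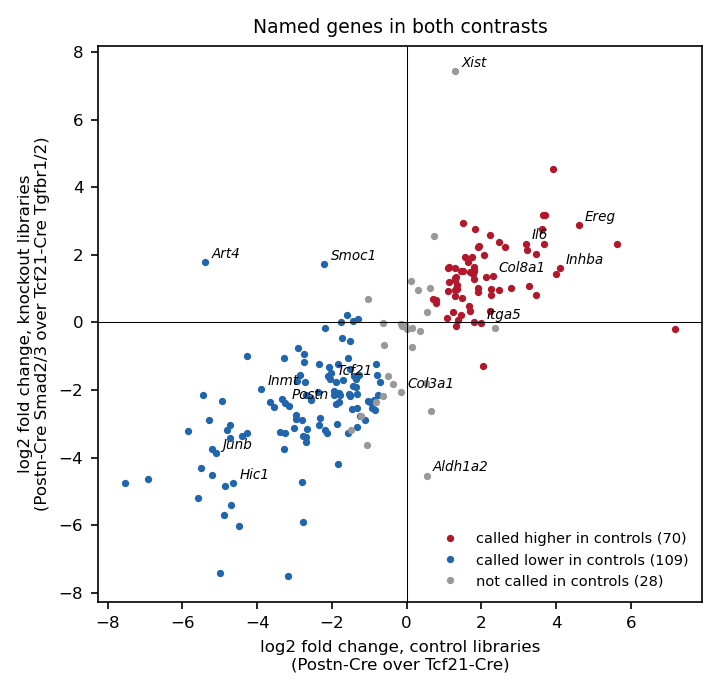
Log2 fold change of 207 named genes in the control libraries (x axis, Postn-Cre over Tcf21-Cre) against the mutant libraries (y axis, Smad2/3 DKO over Tgfbr1/2 DKO), coloured as 70 risen, 109 fallen and 28 not called in the controls. Most called genes lie on the same side of 0 in both contrasts, with Art4 and Smoc1 called in opposite directions.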

How the data were processed

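Total RNA from sorted GFP+ cells was amplified with Ovation RNA-Seq System v2 and made into Nextera XT libraries sequenced on a HiSeq2500, per the labels' protocols. Per the file headers, the values are raw values per gene after alignment to a mouse10 reference, and per the submitters' processing notes the build was mm10. For the aligner, counter and annotation no source used here gives a name, and nothing states that strand was kept, so overlapping genes and antisense genes cannot be told apart. The deposited values are expected counts, per the file headers and the values themselves: 12.5% of the values above 0 were whole, within 1e-09. A table was deposited for each run, and both were joined by gene identifier (38087 genes in each). Each entry was rounded to a whole number, and entries that share a symbol were then summed (278 symbols, 3966 entries), which left 34399 symbols. Positions, GC content and lengths come from GENCODE vM21, which holds 95.3% of the identifiers, and 98.6% of tested genes had both. Promoters come from RefSeq (GRCm38.p6).

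The 2 groups of 2 were fitted with edgeR 4.0.16 in R 4.3.3 (filterByExpr, TMM, robust glmQLFit and glmQLFTest, Benjamini-Hochberg adjustment over all tested genes, threshold 0.05). Standard errors were derived from the F statistic. CPM are per 1000000 of the TMM-scaled library size within each fit of 4 libraries, and correlations used log2 of CPM plus 0.5. GC and length trends were lowess curves (span 0.5) of each library's deviation from the gene mean, entered as offsets. Alternatives were DESeq2 1.42.0, its size factors, no filter, no robust step, a fit of all 8 libraries, unsummed entries, other scalings, a 2-fold test and leaving out each library. Total-count scaling, both trends removed together and the 2-fold test with the GC trend removed were added after seeing the data. The scripts were checked on simulated counts.

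The members and the gene lists were chosen with earlier results of these data known, so list counts are descriptions. The genes named by rule were Postn, Tcf21, the 4 floxed genes and sex-linked genes; the 12 largest rises and 12 largest falls at 10 CPM or more in the higher group without overlap (leaving out Gm numbers, Rik names, ribosomal protein, mitochondrial and histone genes); up to 6 called members of each list by p; the 3 highest markers of each other cell type; and Col1a1, Col1a2, Col3a1, Acta2, Fn1, Pdgfra, Malat1, Neat1 and Rgs5. Other list members in the text (among them Cilp, Thbs4, Meox1, Dcn, Gfpt2, Ddr2, Fos, Egr1, Klf6, Myc, Tgfb3, Foxc1, Zeb1 and Cdh5) were chosen after their values were seen. The deposited fold-change tables of knockout against control do not hold this comparison and were not used.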

Additional observations from a re-analysis of the deposited data

Results flagged for a closer look

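The contrast of Postn-Cre over Tcf21-Cre libraries was taken in the controls and, with no shared library, in the mutant libraries, and the difference of both log2 fold changes was tested as an interaction in an edgeR fit of all 8 libraries. For 23 of the named genes this difference passed an adjusted p of 0.05. Values below are the control contrast minus the mutant contrast on the log2 scale.

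Positive differences were measured for Col3a1 (1.88), Col5a1 (1.35), Col5a3 (1.66), Col6a2 (1.38), Col6a3 (1.35), Fkbp10 (2.30), Hspg2 (1.75), Sdc3 (1.59), Eng (1.71) and Itga5 (1.96). Il1r1 (1.86), Pgk1 (1.37), Chl1 (2.64), Aldh1a2 (5.04) and AL732403.1 (7.34) were also positive. AL732403.1 shares 98.6% of its exonic bases with other annotated genes, so its counts are uncertain. Negative differences were measured for Art4 (-7.20), Smoc1 (-3.96), RNaseP_nuc (-3.33), Hspb7 (-2.05), Inmt (-1.95), Cytl1 (-1.86) and Malat1 (-1.84). The control contrast also lay below the mutant contrast for Xist (-6.18), which reached 292 and 79.8 CPM in the Smad2/3 DKO libraries alone. The floxed genes differ between the mutant groups too, and their part in these differences was not tested. Nor was the part of the animals' sex tested for Xist.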

How the results depend on the processing

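Called genes in the control comparison numbered 5612 and ranged from 3177 to 6801 when 1 library was left out (2959 to 1773 higher, 3842 to 1404 lower). The lowest count came without Tcf21-Cre HK7, and the lone library of a group was then taken to vary like the other group. A 2-fold test called 1210 (462 higher, 748 lower), removal of the GC and length trends 3698 (1533 higher), of the GC trend 1698 higher, and the 2-fold test with the GC trend removed 300 (108 higher, 192 lower). Total-count scaling gave 1583 higher. The mutant contrast (7388) ranged from 4667 to 8256 without 1 library (2090 to 3553 higher, 2577 to 4703 lower), lowest without Tgfbr1/2 DKO HK2. The remaining settings kept these counts within 1.5 times. A direction is counted here as turned where the sign changed and the gene passed the threshold in either fit; sign changes of genes that passed in neither, such as Fn1, are not listed. Among the 208 named genes, none turned in that sense under DESeq2, its size factors or total-count scaling. With the GC trend removed it turned for Col18a1 (0.10), Col5a1 (0.26), Eng (0.062), Hspg2 (0.25), Sdc3 (0.17) and Smtn (0.55). With GC and length removed it turned for Eng (0.062), Sdc3 (0.055), Smtn (0.55), Smad2 (-0.067), Tgfbr1 (-0.65) and Uty (-0.0033), and with length removed for Ttn (-0.93). It also turned without 1 library for the uncalled Hba-a1 (-1.57 without Postn-Cre HK3 to 1.31 without HK4) and for Steap4 (-1.11 without Tcf21-Cre HK7 to 1.10 without HK6). The cause was not tested. No paired analysis was possible because the control groups share no replicate number (3 and 4 against 6 and 7). With 2 libraries a group, smaller differences may have been missed, and driver and run cannot be told apart at any depth.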

Other observations

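Lipid genes were not described above: 7 of 36 (19.4%) rose and 7 (19.4%) fell, near the 16.6% and 17.3% of all genes. Under total-count scaling 5 rose and 14 fell, where 9.55% of all genes rose and 24.8% fell. Apoe, the lipoprotein ligand apolipoprotein E, stood at 42.8 and 32.8 CPM in the Postn-Cre controls against 347 and 239.8 CPM in the Tcf21-Cre controls (-2.96 ± 0.26, adjusted p = 0.00127). The nuclear noncoding RNA Malat1 read 31527 and 40254 CPM against 23648 and 19243 CPM (0.74 ± 0.25, adjusted p = 0.053). Its neighbour Neat1, the scaffold of paraspeckles, rose, at 1035 and 2265 CPM against 566 and 448 CPM (1.70 ± 0.36, adjusted p = 0.0109), with an adjusted p of 0.0568 without HK6 and 0.088 without HK7. Entries with the symbol of the RNA polymerase III transcript 7SK, 334 in all, were summed, so the value is not that of 1 transcript. Their sum stood at 305 and 261 CPM against 935 and 1446 CPM (-2.07 ± 0.26, adjusted p = 0.00217). The smallest p of all named genes belonged to Mir5105, at 29.7 and 28.6 CPM against 805 and 894 CPM (-4.87 ± 0.21, adjusted p = 0.000469), and its log2 fold change in the mutant libraries was -4.85.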
